A study of Oryza sativa with 8 samples.

Results

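The regions described here are the stretches of the rice genome that were called accessible in both libraries of Nipponbare (Nip, a japonica cultivar) seedlings under normal conditions (Normal) and in neither library of Nip seedlings after heat stress (HS). Of 49606 merged regions on the 12 chromosomes, 1034 met this rule and are called Normal-only regions, which is 2.08% of all. To find them, the peaks of the 4 Nip lists were pooled and those sharing a base or meeting end to end were joined. A joined region was kept if it held a peak of Normal replicate 1 and of Normal replicate 2 and no peak of HS replicate 1 or HS replicate 2. The members were thus chosen by the presence and absence of called peaks in these same 4 lists, so the difference between HS and Normal at these regions is a description and was not tested. The background was formed by the regions specific to a mixed pair of lists, 1 Normal and 1 HS, of which there are 4.

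Accessible chromatin was mapped with ATAC-seq. The Tn5 transposase used in this assay cuts DNA that is free of tightly packed nucleosomes and leaves sequencing adapters there. The study profiled 2 cultivars, Nip and 93-11 (an indica rice), under 2 conditions with 2 libraries each, and the 93-11 lists have other coordinates and were not used here. Both Nip groups were the aerial parts of 3-week-old seedlings raised in culture solution. The HS group had been held at 45 °C for 36 h at a relative humidity above 80% and a light intensity of 60 to 80 μmol m-2 s-1, against 800 μmol m-2 s-1 during growth. For the Normal seedlings, light and humidity over the same hours were not stated, so HS means the whole treatment and its parts cannot be told apart. The samples were whole shoots, in which fewer nuclei with an open site and less opening in each nucleus cannot be told apart.

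In plant chromatin, accessible sites lie mainly at promoters and other regulatory elements, where transcription factors keep nucleosomes away or use the gaps between them. Under heat, seedlings activate heat stress transcription factors and chaperone genes and lower the activity of many genes for photosynthesis and growth, and some regulatory sites open while others close. No gene annotation or sequence of the build behind these lists was used here, so the regions are given by position, and neither genes nor motifs are assigned to them.

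The lists of the 4 libraries held 29542 to 36743 peaks on the 12 chromosomes. They carry no read counts, so depth is unknown. A background rate, the mean pileup of fragments that chance alone would give, was fitted to the peak values and rises with depth and with fragment length. In the Normal libraries it was 5.26 ± 0.0650 (SD, n = 2). In the HS libraries it was 29.7% higher, at 6.82 ± 0.0399 (SD, n = 2). The HS lists were also longer by 19.8%, with 36511 ± 328 peaks (SD, n = 2) against 30471 ± 1313 (SD, n = 2). The Normal-only regions therefore lacked a peak in the 2 lists with the higher rate and the larger number of peaks. The part that depth had in the calls was not tested. Condition and background rate were confounded, and the labels name no sequencing batch.

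The Normal-only regions were more numerous than the regions of each mixed pair. The pair of Normal replicate 1 and HS replicate 1 had 607 regions of its own (1.22% of all merged regions), and the pair of Normal replicate 1 and HS replicate 2 had 646 (1.3%). The pair of Normal replicate 2 and HS replicate 1 had 484 (0.976%), and the pair of Normal replicate 2 and HS replicate 2 had 551 (1.11%). The 1034 Normal-only regions thus exceeded the highest mixed pair by a factor of 1.60 and the lowest by a factor of 2.14. The opposite class, regions with a peak in both HS lists and in neither Normal list, had 4997 members or 10.1% of all regions, 4.83 times as many as the Normal-only class. This ratio is for lists of unequal length. The lists are equally long when cut to their 10000 strongest peaks each. There were then 1294 HS-only and 1191 Normal-only regions, a ratio of 1.09, and 36 of those 1191 touched a member of the class described here. Equal lengths largely set this ratio near 1, since regions missing from the Normal lists are then nearly balanced by regions missing from the HS lists. The part that list length had in the ratio of 4.83 was not tested. With peaks of at least 4 times the background rate, a cut that does not set the lists to equal length, the ratio was 3.89. Of the 953 Normal-only regions under that cut, 270 touched a member. Both Normal lists and both HS lists were needed for the number of Normal-only regions, which was 4015 without Normal replicate 1, 4869 without Normal replicate 2, 1685 without HS replicate 1 and 1701 without HS replicate 2.

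**Figure D1:**
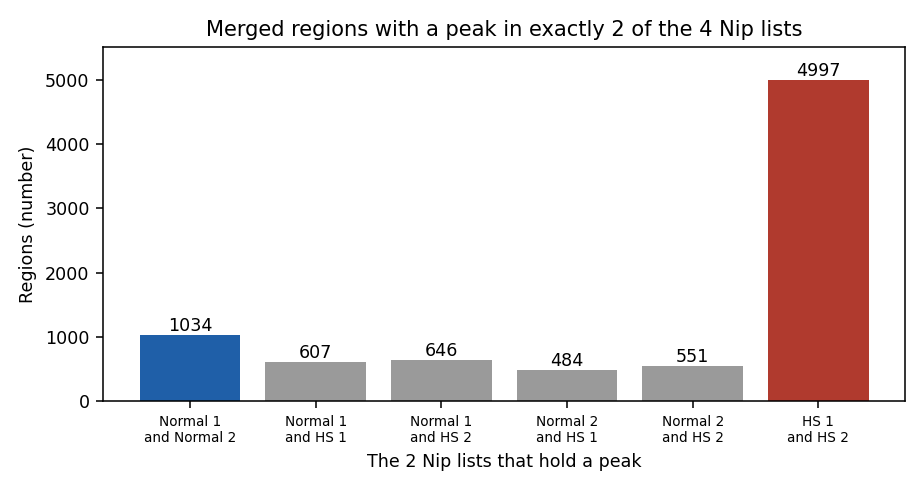
Number of merged Nip regions (y axis) with a peak in exactly 2 of the 4 lists, for each pair of lists (x axis), with the Normal pair in blue, the 4 mixed pairs in grey and the HS pair in red. The Normal pair had 1034 regions, above the 484 to 646 of the mixed pairs and below the 4997 of the HS pair.

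Absence of a called peak from both HS lists was uncommon among reproducible Normal peaks. Of 22980 regions with a peak in both Normal lists, 89.8% also held a peak in both HS lists, 5.72% in 1 HS list and 4.50%, the Normal-only regions, in none. Seen from the HS side, 16.6% of 30101 regions with a peak in both HS lists had no Normal peak. The reproducible Normal set was thus mostly retained in the HS lists, while a larger share of the reproducible HS set, taken from the longer lists, was without a counterpart.

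The peaks of the Normal-only regions were weak to moderate for their lists. Each peak has a −log10 p against the background, where higher is stronger, and because this value rises with depth it was ranked within its own list. The median Normal-only peak had a −log10 p of 6.50 in Normal replicate 1, at percentile 28.0, and of 6.22 in Normal replicate 2, at percentile 26.4. The median fold over the background rate of the library was 3.71 in replicate 1 and 3.66 in replicate 2. In regions held by all 4 lists the median peak had a −log10 p of 17.1 and 15.9 in Normal replicates 1 and 2, at percentiles 66.2 and 64.2, and a fold of 6.45 and 6.24. The pair-specific classes were all weaker than these shared regions. In the mixed pairs the median percentiles were 17.6 to 20.4 in the Normal list and 15.3 in the HS list, and in HS-only regions they were 29.9 and 31.0. The Normal-only peaks therefore lay in the lower part of their lists like those of the other pair-specific classes, above the mixed pairs and close to the HS-only regions.

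Many of the Normal-only regions lay in the weaker part of the lists. In replicate 1, 44.4% of them were below percentile 25 of the list, and in replicate 2, 46.3% were. Below percentile 10 lay 153 of the 1034 (14.8%) in replicate 1 and 165 in replicate 2. The weaker of the 2 peaks lay below percentile 10 in 261 of the 1034. In 615 of the 1034 regions at least 1 of the 2 peaks was below percentile 25, in 323 both were, and in 819 both were below percentile 50. The weakest Normal-only peak had a −log10 p of 2.82 in Normal replicate 1 and 2.85 in Normal replicate 2, against the lowest values of the lists of 2.81 and 2.82. Just outside the rule lay 1314 regions with a peak in both Normal lists and in 1 HS list, 648 with HS replicate 1 and 666 with HS replicate 2. Their HS peak had a median −log10 p of 6.64, at percentile 21.0, with the lowest at 2.71, and 57.7% of these HS peaks were below percentile 25 of their list. Their Normal peaks, at median percentiles of 34.5 and 33.4, were also somewhat stronger than those of the Normal-only regions. The rule thus divides a range in which many peaks of both conditions ranked low in their lists, and absence from an HS list means that no peak was called there.

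The 2 Normal libraries gave the Normal-only regions similar strength. The percentile was higher in replicate 1 for 546 regions and in replicate 2 for 488. Across the 1034 regions, which share the 2 libraries, the rank correlation of the percentiles was 0.625, against 0.319 to 0.478 in the mixed pairs and 0.701 in the HS-only regions. The fold over background differed between the 2 Normal peaks by a median factor of 1.14, and in 56 regions by more than 1.5. Between the 2 lists of a mixed pair the median factor was 1.16 to 1.19, and in HS-only regions it was 1.14. This factor thus differed little between the classes. Because regions were formed by joining peaks that overlapped or touched, some overlap of the 2 peaks was set by the rule. The median overlap was 96.8% of the shorter peak, and in 925 regions (89.5%) it was at least 50%. In the mixed pairs 84.9% to 86.8% of regions reached that overlap.

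**Figure D2:**
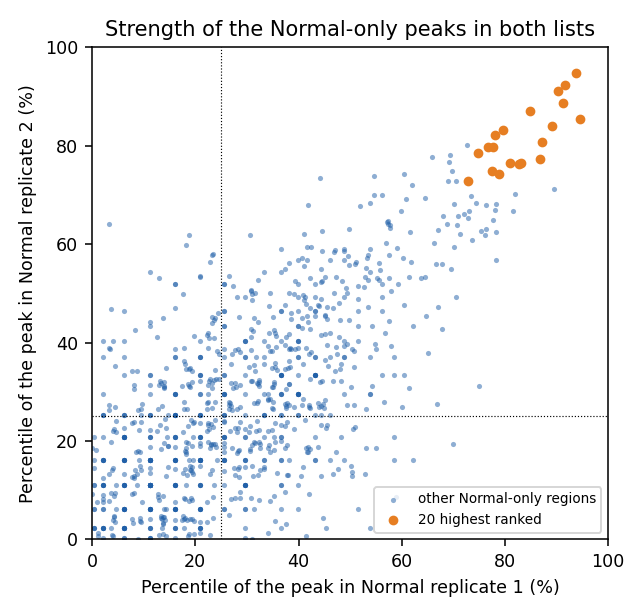
Percentile of the peak value within the list of Normal replicate 1 (x axis, %) and of Normal replicate 2 (y axis, %) for each of the 1034 Normal-only regions, with the 20 highest ranked in orange and dotted lines at percentile 25. Most points lie low in both lists, 323 of them below percentile 25 in both, and the 20 named regions lie at or above percentile 72.8 in both.

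As a ratio, the excess over the mixed pairs grew with the strength of the peaks, while in number of regions it was smallest in the strongest range. For each region the lower of its 2 percentiles was taken. Below percentile 25 there were 615 Normal-only regions, against 400 to 521 regions of the mixed pairs. Between percentiles 25 and 50 there were 319 against 76 to 110, and between 50 and 75 there were 84 against 6 to 14. At or above percentile 75 there were 16 Normal-only regions, and the mixed pairs had 1 region in all. In the lowest range the Normal pair and the mixed pairs were thus closest in size, and above percentile 75 nearly all regions of these 5 pairs belonged to the Normal pair. With a fold of at least 4 in both of its lists, the Normal pair had 270 regions and the mixed pairs 44 to 68. The ranks come from different lists in the mixed pairs, whose members include an HS list with stronger peaks, so the comparison is by rank and not by value.

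As a share of the regions that a pair of lists had in common, pair-specific regions became rarer with strength in every pair, but less steeply in the Normal pair than in the mixed pairs. Among regions of both Normal lists, 16.3% were Normal-only below percentile 25, 5.15% between 25 and 50, 1.29% between 50 and 75, and 0.247% above. The mixed pairs went from 9.02% to 11.7% in the lowest range to 0.0907% to 0.203% between percentiles 50 and 75. At percentile 90 or above, 3 of 2600 regions of both Normal lists had no HS peak, and none of the 2316 to 2432 regions of a mixed pair was specific to it. The strongest Normal sites thus almost all had a called peak under HS, and 3 of them had none.

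**Figure D3:**
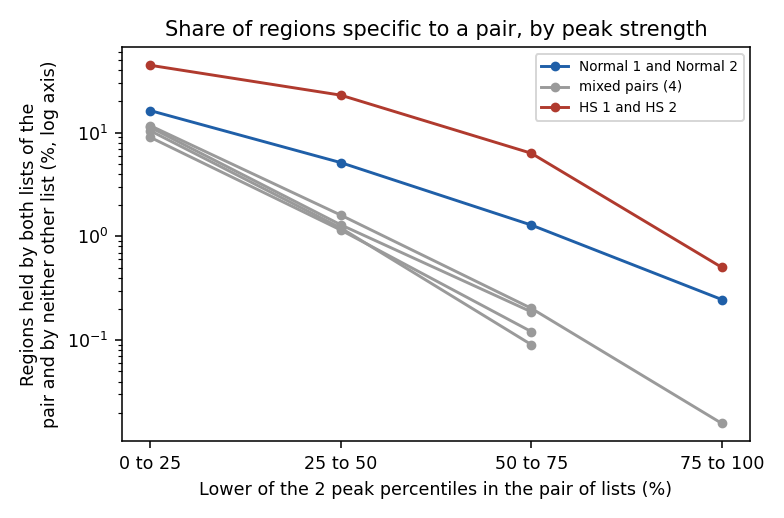
Share of the regions common to a pair of lists that held no peak in the other 2 lists (y axis, %, log scale), by the lower of the 2 peak percentiles (x axis, %), for the Normal pair (blue), the 4 mixed pairs (grey) and the HS pair (red), with shares of 0 not drawn. The Normal pair falls from 16.3% to 0.247% and stays above the mixed pairs in every range, and the HS pair lies above both.

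The 20 highest ranked Normal-only regions, by the lower of their 2 percentiles, lay on 8 chromosomes. Their −log10 p ranged from 21.0 to 60.2 in Normal replicate 1, with a median of 30.2, and from 20.5 to 59.0 in Normal replicate 2, with a median of 26.5. Their peaks stood 7.32 to 14.4 times over the background rate in replicate 1 and 7.29 to 14.4 times in replicate 2. The lowest fold of any peak in the HS lists was 2.18. This fold is over the rate fitted to a whole list, so the limit of calling at these positions under HS is not known. No HS peak lay within 500 bp of any of the 20, and 15 had none within 1000 bp.

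The first was chr2:812253-812476, 224 bp long, with a −log10 p of 56.2 in Normal replicate 1 and 59.0 in Normal replicate 2. Its nearest HS peak was 8323 bp away, and its percentiles were 93.7 and 94.8. It is short, yet its peaks ranked above percentile 90 in both lists. The second was chr7:12477264-12477717, 454 bp long, with values of 48.1 and 48.6 and a gap of 3461 bp to the nearest HS peak. The third, chr8:11818426-11818920, had values of 44.1 and 45.1 and a gap of 8010 bp. These 3 were the members above percentile 90 in both lists, and in each the 2 replicates differed little.

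The next regions were less even between replicates. The fourth, chr2:16363269-16363613, had a −log10 p of 46.8 and 39.0 in Normal replicates 1 and 2, and its nearest HS peak was 12723 bp away. The fifth, chr7:18461458-18461843, had 60.2 and 32.9, and an HS peak lay 592 bp away. It had the highest value of all Normal-only peaks in replicate 1, and its replicate 2 value was 9.79 times over background against 14.4 in replicate 1. The sixth, chr5:6209971-6210418, had 32.9 and 35.6, with HS peaks 618 and 606 bp away in HS replicates 1 and 2. The seventh, chr4:12775514-12776152, had 41.4 and 30.9, with HS peaks at 683 and 665 bp. In the fifth to seventh regions, HS peaks of both replicates therefore lay beside the Normal-only site at nearly equal distances.

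The eighth, chr1:20201964-20202458, had a −log10 p of 37.3 in Normal replicate 1 and 27.0 in Normal replicate 2, with a gap of 2939 bp. The ninth, chr6:9649548-9650155, had 26.7 and 29.9, and its nearest HS peaks were 76023 bp away in HS replicate 1 and 4842 bp in HS replicate 2. The tenth, chr6:14126993-14127175, had 25.1 and 28.6 over 183 bp, with a gap of 1023 bp. The 2 HS lists thus differed most around the ninth region, where replicate 1 held no peak over a long stretch. The other 10 regions had values of 21.0 to 36.4 in replicate 1 and 20.5 to 26.0 in replicate 2, widths of 161 to 609 bp and gaps of 783 to 21807 bp. The longest of those gaps belonged to chr8:11733722-11734330. Among them chr7:12486202-12486388 (29.8 and 23.1) lay 8484 bp from the second region, so that this stretch of chromosome 7 held 2 of the 20.

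**Figure D4:**
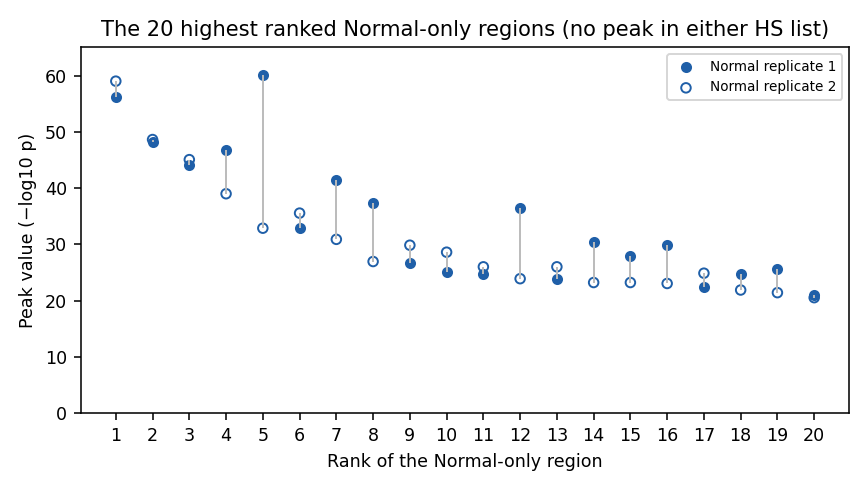
Peak value (y axis, −log10 p) in Normal replicate 1 (filled) and Normal replicate 2 (open) for the 20 highest ranked Normal-only regions in order of rank (x axis), with a grey line joining the 2 replicates. Values run from 60.2 down to 20.5, the replicates nearly coincide at ranks 1 to 3 and lie furthest apart at rank 5, and no region has a peak in an HS list.

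Normal-only regions were short. Their median width was 356 bp (quartiles 274 and 470 bp), close to the 339 to 354 bp of the mixed pairs and below the 386 bp of the HS-only regions and the 641 bp of regions in all 4 lists. Widths ran from 157 to 2455 bp, with 62 regions under 200 bp, 762 of 200 to under 500 bp, 198 of 500 to 1000 bp and 12 longer. Together they covered 408 kb, 1.65% of the length of all merged regions. Nearly all were single sites, since 1022 of them held 1 peak in each Normal list. Regions of 4 lists are widened by merging more peaks, so single peaks were compared too. The median Normal-only peak was 263 bp wide in replicate 1 and 266 bp in replicate 2, against 428 and 425 bp for shared regions. In regions of both Normal lists and 1 HS list the Normal peaks were 279 and 278 bp wide, close to the Normal-only peaks. Over the whole lists the median peak was 346 and 355 bp wide in Normal replicates 1 and 2. In HS replicates 1 and 2 it was wider, at 405 and 402 bp.

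Merged Normal-only regions did not widen steadily with strength, while their single peaks were narrowest in the weakest range and widest in the strongest. The median width was 351 bp below percentile 25, 363 bp between 25 and 50, 334 bp between 50 and 75, and 416 bp in the 16 regions above. In regions of all 4 lists it was 590, 578, 629 and 723 bp in the same ranges, and in HS-only regions 369, 392, 458 and 500 bp. Single Normal-only peaks had median widths of 243, 290, 289.5 and 374.5 bp in Normal replicate 1 over these ranges. In Normal replicate 2 they had 249, 282, 288.5 and 365 bp. The Normal replicate 1 peaks of regions in all 4 lists had 282, 340, 431 and 564 bp. At percentile 50 and above, Normal-only regions had a median width of 340 bp (quartiles 271 and 473 bp, 100 regions) and HS-only regions 460 bp (353 and 646 bp, 562 regions). HS peaks were wider than Normal peaks over the whole lists too, and the part that this had in the contrast was not tested. Above percentile 50 the shared regions were stronger than the Normal-only regions, so the range from 50 to 75 gives the closer match, with a median lower fold of 5.79 in Normal-only regions and 6.12 in regions of all 4 lists. There the peaks in Normal replicate 1 had a median width of 289.5 bp in Normal-only regions and 431 bp in shared ones. In regions of both Normal lists and 1 HS list they had 293 bp, at a median lower fold of 5.55. Narrow peaks at this strength were thus not particular to the Normal-only class. Merged regions of the mixed pairs in that range, 6 to 14 per pair, had median widths of 236 to 277 bp, against 334 bp for merged Normal-only regions. The rule used the peaks that give these widths, so the difference was not tested.

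**Figure D5:**
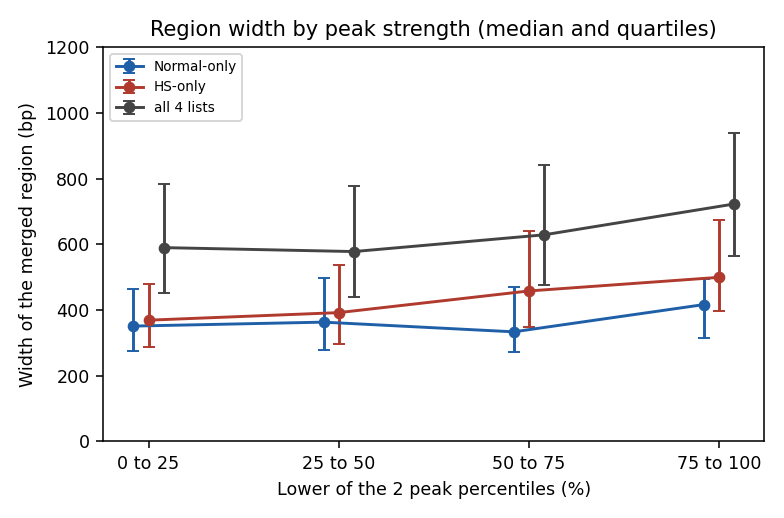
Width of the merged region (y axis, bp; points are medians and bars the quartiles) by the lower of the 2 peak percentiles (x axis, %) for Normal-only regions, HS-only regions and regions of all 4 lists, whose percentiles are those of their Normal peaks. Normal-only medians stay between 334 and 416 bp, while those of the regions in all 4 lists lie between 578 and 723 bp.

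The widest Normal-only regions were exceptions. The longest, chr2:28863703-28866157, spanned 2455 bp, with a −log10 p of 12.0 in Normal replicate 1 and 13.2 in Normal replicate 2, and an HS peak lay 373 bp away. The second, chr9:10461156-10463029, spanned 1874 bp with values of 10.7 and 8.74, and its nearest HS peak was 15558 bp away. The third, chr10:23354316-23355698, spanned 1383 bp with 7.85 and 8.92 and a gap of 2140 bp. In the first 2 the full span came from the replicate 1 peak alone, and the replicate 2 peaks were 1396 and 755 bp wide.

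Most Normal-only regions stood apart from the peaks that were called under HS. The median gap to the nearest HS peak was 1893 bp, with quartiles of 753 and 4891 bp, and the mixed pairs had medians of 1830 to 2420 bp to the lists that lacked them. An HS peak lay within 500 bp of 156 regions (15.1%, against 15.2% to 18.6% in the mixed pairs), and 704 regions (68.1%) had none within 1000 bp. In 100 regions (9.67%) the gap was more than 10 kb. The distance to HS peaks was thus about that of the background classes. Between the 2 HS replicates there was little difference, since the nearest HS peak belonged to HS replicate 1 in 499 regions and to HS replicate 2 in 501. The most isolated was chr11:8509579-8509930, 44129 bp from an HS peak, with a −log10 p of 11.4 in Normal replicate 1 and 3.96 in Normal replicate 2. Of the strong regions at percentile 50 or above, 63 of 100 had no HS peak within 1000 bp. In the mixed pairs 9 of 13, 10 of 15, 5 of 8 and 4 of 6 regions of that strength had no peak of the lacking lists within this distance, so the share in the Normal-only class was at that of the background.

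Normal-only regions occurred on every chromosome. They were most numerous on chromosome 1, with 126, and fewest on chromosome 12, with 59. As a share of the merged regions of a chromosome they ranged from 1.38% on chromosome 3 to 2.50% on chromosome 9, where 81 of 5859 and 75 of 3002 regions belonged to the class. They outnumbered the highest mixed pair on 12 of 12 chromosomes, for example with 76 against 53 on chromosome 11. HS-only regions were the larger class on all of them, by a factor of 3.20 on chromosome 11 to 8.51 on chromosome 3. As for the ratio of 4.83 over all chromosomes, these factors are for lists of unequal length. That ratio was 1.09 among the 10000 strongest peaks of each list, a cut to equal length that largely sets it near 1. Chromosome 3 thus combined the lowest share of Normal-only regions with the highest share of HS-only regions, 11.8%.

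Along the chromosomes, Normal-only regions lay in stretches with fewer accessible sites than those of shared or HS-only regions. The number of other merged regions within 500 kb on either side was counted, and its quartiles over all regions were 111, 138 and 169. Normal-only regions had a median of 126 neighbours, HS-only regions 152 and regions of all 4 lists 147. In the sparsest quartile, with 111 neighbours or fewer, lay 352 Normal-only regions (34.0%), 16.2% of HS-only regions and 19.0% of regions in all 4 lists. The mixed pairs had 31.9% to 36.1% there, so the Normal-only regions lay within the range of the background classes in this measure. Of the 16 at or above percentile 75, 10 lay in the sparsest quartile, against 27.4% of the 84 between percentiles 50 and 75. The 20 named regions, which include these 16, had 13 there. At or above percentile 75 it held 10.0% of the 40 HS-only regions and 20.3% of the 6449 regions of all 4 lists. It held 37.5% of the 24 regions of both Normal lists and 1 HS list in that strength range. The mixed pairs had 37.5% to 66.7% of their 6 to 15 regions at or above percentile 50 in the sparsest quartile, where 33.0% of the 100 Normal-only regions of that strength lay. The numbers of strong regions are small, and the position was not tested.

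Some Normal-only regions lay close together. With gaps of at most 10 kb between neighbours, 107 regions (10.3%) formed 49 groups of 2 or more, against 2.27% to 5.77% of the regions of the mixed pairs, which are fewer and therefore further apart. Of the 49 groups, 25 contained no region with an HS peak. No such count is given for groups of the mixed pairs, so this number stands without a background. The region next to a Normal-only region was itself Normal-only in 3.68% of cases, against 2.08% over all regions and 1.76% to 2.72% for the neighbours of mixed pairs. It was HS-only in 7.16% of cases, against 10.1% over all regions and 8.40% to 9.06% for the neighbours of mixed pairs. All of these classes thus had fewer HS-only neighbours than regions overall. None of these shares was tested.

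The largest group had 4 members within 8418 bp, chr9:11398767-11407184. Their −log10 p was 4.76, 5.23, 4.89 and 6.67 in Normal replicate 1 and 7.22, 7.17, 5.40 and 5.59 in Normal replicate 2. All 4 were weak, and 1 of the 5 merged regions in that span held an HS peak. A second group on the same chromosome, chr9:10461156-10467962, began with the second widest region and had 3 members, with 10.7, 7.03 and 7.17 in replicate 1 and 8.74, 7.50 and 4.62 in replicate 2. No region in that span had an HS peak, and the nearest HS peaks were 10625 to 15558 bp away. This group fell in the 1 Mb window with the most Normal-only regions, from 10 to 11 Mb on chromosome 9, where 10 of 111 regions were Normal-only and 7 HS-only. The most that a mixed pair reached in any window was 7, in the pairs with 646 and 551 regions in all, so relative to the size of its class the chromosome 9 window was not fuller than the fullest windows of the background. Near the start of chromosome 9, chr9:14943-17640 held 3 more, with values of 3.87, 4.92 and 3.84 in replicate 1 and 10.1, 8.42 and 6.09 in replicate 2, and gaps of at least 22279 bp to an HS peak. In this group replicate 2 was higher at every site.

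A further group on chromosome 2, chr2:21855520-21864060, had 3 members, and the nearest HS peak was 19124 bp away. Their −log10 p was 6.07, 4.39 and 6.07 in Normal replicate 1 and 10.1, 4.48 and 3.96 in Normal replicate 2. The group on chromosome 11, chr11:2124915-2128740, differed in having HS peaks close by, at 222 to 1054 bp, and a stronger first member with 14.5 and 13.1. On chromosome 5, chr5:29263112-29271259 held a member at 7.09 times the background rate in Normal replicate 1 that lay 380 bp from an HS peak. The nearest region of all 4 lists was further away than the HS peaks for each member of the chromosome 11 group, at 2200 to 5372 bp. The groups thus differed widely in their distance to HS peaks.

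Over the genome, 342 of 378 windows of 1 Mb held at least 1 Normal-only region, with a median of 3. HS-only regions were the more numerous class in 342 windows and Normal-only regions in 24. These counts, too, compare the shorter Normal lists with the longer HS lists, and the windows were not counted with lists of equal length. Among the 24 was the window from 5 to 6 Mb on chromosome 5, with 8 Normal-only and 2 HS-only regions.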

How the data were processed

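Peak lists of 4 Nip libraries, 2 Normal and 2 HS, were analysed. The methods of the study state that the authors used Cutadapt for trimming, Bowtie2 for mapping, SAMtools and Picard for filtering, and MACS2 for narrow peaks of each library, with 0.05 as the limit of the adjusted p-value. The submitters' processing notes instead name BWA 0.7.10-r789 and SAMtools 0.1.19, so the aligner is uncertain. The lists hold peaks that passed the threshold only. The fifth column deposited by the authors has no header and was taken from its values to be an unadjusted −log10 p. The genome build is not given in the sources used here. The reference table that was at hand is of another or unknown relation to it, so gene starts, the planned gene lists, motifs and sequences were not analysed here. Positions are counted from 1 on the sequences as named.

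For the background rate of a list, a Poisson distribution was fitted so that its upper tails at integer pileups came closest to the 12 commonest values, and 29.3% to 33.7% of all values in a list lay on these tails within 0.005. The fold of a peak is the pileup implied by its value over this rate, and it is too low for peaks scored against a higher local rate. Percentiles were taken among the peaks of a list on the 12 chromosomes, and a region took its strongest peak in each list. Gaps are the bases between a region and the nearest peak. Chromosome ends are the furthest peak ends. Merging, gaps and rate fitting were tested on simulated data. Named regions were the 20 with the highest lower percentile. The members, lists and rules were chosen with earlier results of these data known. With 2 libraries per group no permutation test of condition can give a p below 0.333, and none was run. The labels do not say whether replicates were separate seedlings, while the methods call them biological. Python 3.11.15, numpy 2.4.6, pandas 2.3.3 and scipy 1.17.1 were used.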

Additional observations from a re-analysis of the deposited data

How the results depend on the processing

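The number of Normal-only regions was 1034 and stayed between 878 and 1191 when peaks, contigs or overlap were treated otherwise, but not over the same sites. Leaving out 1 library moved it to between 1685 and 4869, because a list that is left out can no longer exclude or support a region; it was 4015 without Normal replicate 1, 4869 without Normal replicate 2, 1685 without HS replicate 1 and 1701 without HS replicate 2. Of the 1191 regions among the 10000 strongest peaks of each list, 36 touched a Normal-only region, and of the 953 among peaks of at least 4 times the background rate, 270 did. Under these thresholds the mixed pairs had 111 to 132 and 220 to 313 regions. The median width of 356 bp became 541 bp among the 10000 strongest peaks, 444 bp at 4 times the background, 352 bp without regions that had an HS peak within 500 bp and 344 bp where the Normal peaks overlapped by at least 50%. It ranged from 221 to 364 bp when 1 library was left out. The median percentile of the peaks, 26.9 over both lists, became 76.8, 49.7 and 29.5 among the 10000 strongest, at 4 times the background and with the overlap of 50%, and ranged from 12.8 to 29.6 when 1 library was left out. The median gap to an HS peak, 1893 bp, became 7444, 3069, 2546 and 1953 bp among the 10000 strongest, at 4 times the background, without HS peaks within 500 bp and with the overlap of 50%, and ranged from 2305 to 2614 bp when 1 library was left out. These thresholds remove weak peaks by construction. Including contigs added 8 regions and moved no other value beyond the spread between replicates. The share of regions near gene starts was not run, since no annotation of the build was used. No paired analysis was possible because the regions were counted with no test. Depth is unknown, and a lost peak cannot be told from a signal below the threshold of calling.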
